A study of Mus musculus with 8 samples.

Results

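The genes described here are 10 genes of the YAP and TEAD pathway in mouse pancreatic cancer cells: Cyr61, Ctgf, Ankrd1, Amotl2, Ajuba, Lats2, Axl, Yap1, Tead1 and Wwtr1. They were taken from a table of 42687 genes as the rows whose Ensembl identifiers carry these symbols, with Cyr61 also known as Ccn1 and Ctgf as Ccn2. All 10 had a row, and all 10 passed the filter on low counts that kept 15197 genes for testing. RNA was sequenced from 8 libraries, 2 in each of 4 groups, of a single clone of low immunogenicity derived from KPCY mice, which carry, among other alleles, a mutant Trp53 allele, Cre recombinase driven by Pdx1 and a YFP reporter at Rosa26. The groups were ATEV pretreated with Baseline-ZERO DNase, an enzyme that digests DNA, and given at 15 µg/mL (DNase-ATEV below), ATEV at 15 µg/mL, NTEV at 30 µg/mL, and PBS. NTEV are extracellular vesicles (EVs, membrane-bound particles that cells release) of non-activated T cells, and ATEV are taken here to be EVs of activated T cells. Per the labels, cells were treated, harvested and reseeded in a cycle carried out 8 times. The ATEV dose and the NTEV dose each corresponded to 5 µg/mL of EV DNA, and no such amount is listed for DNase-ATEV. Whether library 1 and library 2 of a group are separate cultures is not in the labels, so p-values rest on a spread that may be technical only.

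YAP (Yap1) and TAZ (Wwtr1) are co-activators that bind no DNA themselves and act on genes mainly through the TEAD transcription factors. In the Hippo pathway the kinases LATS1 and LATS2 phosphorylate YAP and TAZ and keep them in the cytoplasm, and cell density, matrix stiffness and actin tension regulate this step. Several target genes encode inhibitors of YAP, which forms a feedback loop. In pancreatic tumours YAP is known as a factor that supports growth. Much of this regulation acts on where the protein is in the cell, which RNA levels do not show.

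The TEAD factors bind the sequence GGAATG, and the region just upstream of the start site is shown for 4 of the genes because their RNA levels carry most of what follows: Cyr61 and Amotl2 were higher in the EV groups than in PBS in most libraries, Ankrd1 was lower, and Yap1 encodes the co-activator itself. Each line gives the RefSeq window on GRCm38.p6 from 250 bases before to 50 bases after the annotated start, 5′ to 3′ on the strand of the gene, with GGAATG or its reverse complement in capitals.
Cyr61 (chr3:145649936-145650235, minus strand): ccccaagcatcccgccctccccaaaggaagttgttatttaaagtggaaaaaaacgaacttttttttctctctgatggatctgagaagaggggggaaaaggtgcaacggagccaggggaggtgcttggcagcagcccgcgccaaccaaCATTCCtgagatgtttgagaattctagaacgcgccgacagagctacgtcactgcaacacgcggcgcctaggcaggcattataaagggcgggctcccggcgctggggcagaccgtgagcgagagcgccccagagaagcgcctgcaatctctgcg
Amotl2 (chr9:102717554-102717853, plus strand): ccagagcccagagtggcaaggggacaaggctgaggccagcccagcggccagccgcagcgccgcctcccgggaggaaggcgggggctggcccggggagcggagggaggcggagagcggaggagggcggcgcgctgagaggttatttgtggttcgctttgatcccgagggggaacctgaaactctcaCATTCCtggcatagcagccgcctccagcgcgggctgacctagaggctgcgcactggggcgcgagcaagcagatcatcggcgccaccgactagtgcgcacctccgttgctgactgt
Ankrd1 (chr19:36119795-36120094, minus strand): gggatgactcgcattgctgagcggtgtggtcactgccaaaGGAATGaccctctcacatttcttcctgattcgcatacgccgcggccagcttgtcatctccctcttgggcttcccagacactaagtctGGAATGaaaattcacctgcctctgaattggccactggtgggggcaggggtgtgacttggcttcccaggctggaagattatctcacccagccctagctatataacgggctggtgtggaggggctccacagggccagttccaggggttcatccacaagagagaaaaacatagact
Yap1 (chr9:8004547-8004846, minus strand): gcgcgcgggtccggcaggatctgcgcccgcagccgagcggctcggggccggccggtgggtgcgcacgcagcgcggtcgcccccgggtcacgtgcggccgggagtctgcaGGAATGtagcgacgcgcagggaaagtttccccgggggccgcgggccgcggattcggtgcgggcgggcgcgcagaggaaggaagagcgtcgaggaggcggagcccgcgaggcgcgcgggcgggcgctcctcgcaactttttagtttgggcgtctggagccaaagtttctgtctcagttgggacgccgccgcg
A window was at hand for 8 of the 10 genes, and Ctgf and Tead1 had none. GGAATG was searched on both strands with no other motif overlapping it. It stood in at least 1 window of all 8 genes, against 16.6% of the 27025 genes with a window. The 10 genes were picked as YAP and TEAD genes, so this contrast is no test. For Lats2 the match began 4 bases after the start, and its window 2 held 0 matches. Ankrd1 and Ajuba held 2 matches each, which 1.36% of all 32851 windows did. In Cyr61 the match began 103 bases before the start, in Amotl2 65 bases before it, in Yap1 141 bases before it, and in Ankrd1 210 and 123 bases before it. The AP-1 sequence TGANTCA, searched in the same way, was found in 0 of the 8 genes, against 8.97% of all genes. Letter matches such as these are descriptions of the window and no measurement of binding.

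The libraries held 34385326 to 52451398 counts. Each of the 10 genes had between 1635 and 59782 counts in every library, so counting error is small beside each value. CPM below are counts-per-million after scaling by the trimmed mean of M-values, and values with ± are means ± SD over 2 libraries. Epithelial markers were abundant (summed 8850 to 11817 CPM over 10 genes), with Krt8, Krt18, Krt19 and Cdh1 high in every library, Epcam at 6.44 to 29.9 CPM and Cldn4 at most 2.04 CPM. Markers of the T cells from which the vesicles came summed to 6.27 to 11.7 CPM over 11 genes, nearly all of it Lck and Trac, and Cd2 and Cd8a were at 0 counts in all 8 libraries. The 8 fibroblast markers summed to 2.97 to 10.6 CPM with Dcn and Lum at 0, the 5 endothelial markers to 0.322 to 1.01 CPM, and the 5 myeloid markers to 2.25 to 5.85 CPM. In cultured bulk samples such as these, fewer cells with a transcript and less transcript per cell cannot be told apart.

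Per kilobase of exon, a scale on which levels of different genes can be set side by side, Cyr61 was the most abundant of the 10 genes in every group, with means of 513 CPM per kb in DNase-ATEV cells, 447 in ATEV cells, 443 in NTEV cells and 170 in PBS cells. Axl and Ctgf came next, Axl with 128, 157, 152 and 143 CPM per kb in DNase-ATEV, ATEV, NTEV and PBS cells and Ctgf with 129, 116, 155 and 105 CPM per kb in the same groups. Wwtr1 had 42.3 to 53.7 CPM per kb over the group means, above Yap1 with 18.9 to 24.4 CPM per kb. Tead1 had 11.3 to 14.5 and Lats2 6.48 to 7.76 CPM per kb, the lowest of the 10 genes.

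None of the 10 genes passed the threshold (adjusted p of 0.05 in edgeR's quasi-likelihood test) in any of the 6 comparisons between groups. Over all 15197 genes tested, 3.01% were called in DNase-ATEV against PBS, 5.19% in ATEV against PBS, 1.11% in NTEV against PBS, 1.19% in ATEV against NTEV, 0.665% in DNase-ATEV against ATEV and 0.0526% in DNase-ATEV against NTEV, so that 0 of 10 lies near what these shares give. At an unadjusted p under 0.05, edgeR had 1 of the 10 genes in DNase-ATEV against PBS (Amotl2), 2 in ATEV against PBS (Amotl2 and Ankrd1) and 3 in NTEV against PBS (Amotl2, Ankrd1 and Tead1). At the same level it had 0 genes in ATEV against NTEV, 1 in DNase-ATEV against ATEV (Yap1) and 2 in DNase-ATEV against NTEV (Yap1 and Tead1). Over all genes that level held 24.7% in DNase-ATEV, 21.9% in ATEV and 19.1% in NTEV against PBS, 8.23% in ATEV against NTEV, 11.3% in DNase-ATEV against ATEV and 10% in DNase-ATEV against NTEV. DESeq2 called 1 gene, Amotl2, in ATEV against PBS and in NTEV against PBS, and 0 in the other 4 comparisons. Its calls over the genes tested were 9.69% in DNase-ATEV, 9.69% in ATEV and 5.06% in NTEV against PBS, 3.04% in ATEV against NTEV, 2.3% in DNase-ATEV against ATEV and 1.1% in DNase-ATEV against NTEV, so the counts at both levels lie near the shares over all genes. The 3 comparisons with PBS share both PBS libraries, so like values in them are not separate observations.

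**Figure D1:**
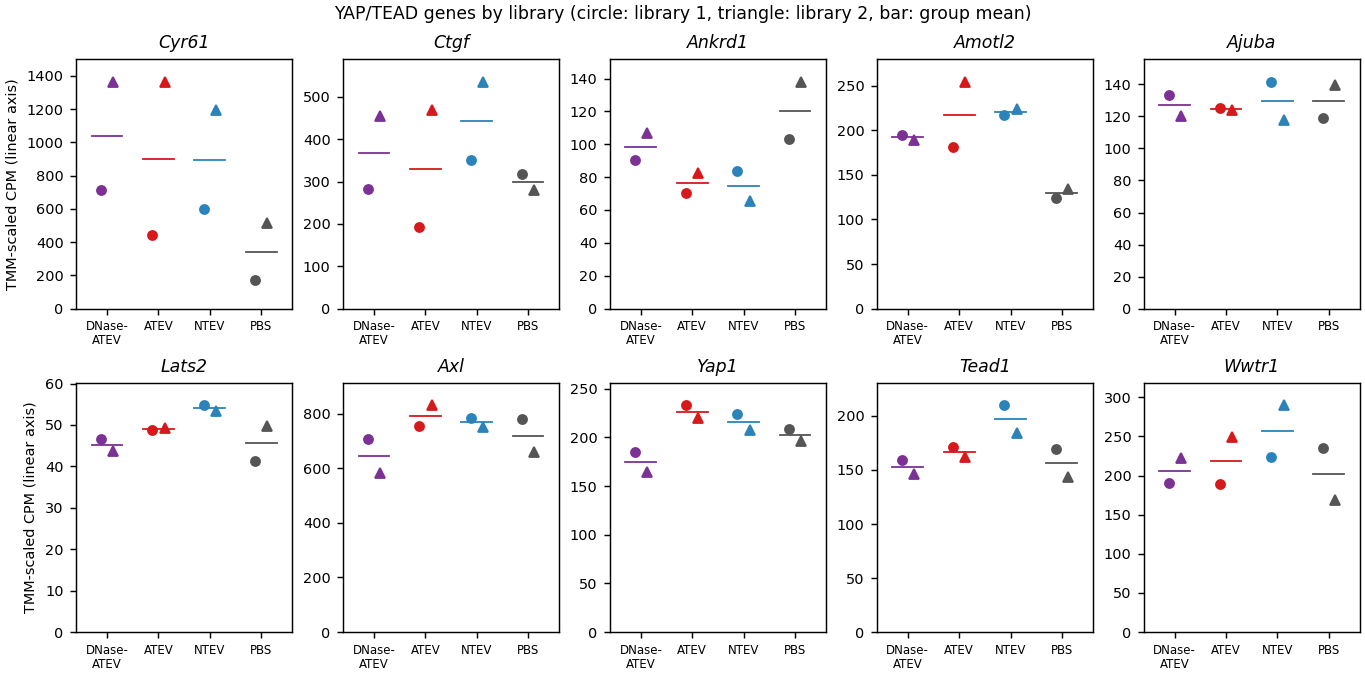
TMM-scaled CPM of the 10 genes (y axis of each panel, linear and starting at 0) in DNase-ATEV, ATEV, NTEV and PBS cells (x axis), with a circle for library 1, a triangle for library 2 and a bar for the group mean. Amotl2 was higher in all 6 EV libraries than in both PBS libraries, and Cyr61 spread from 170 to 1364 CPM with library 2 above library 1 in every group.

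Cyr61 encodes CCN1, a secreted matrix-associated protein that binds integrins and is among the most used readouts of YAP activity. It had 713 and 1360 CPM in the DNase-ATEV libraries, 440 and 1364 CPM in the ATEV libraries, 597 and 1192 CPM in the NTEV libraries, and 170 and 516 CPM in the PBS libraries. DNase-ATEV and NTEV libraries lay above both PBS libraries, while the lower ATEV library lay below the higher PBS library. Cyr61 was 3.02-fold higher in DNase-ATEV cells than in PBS cells (1037 ± 457 against 343 ± 244 CPM), with a log2 fold change of 1.60, a 95% interval from -0.08 to 3.27 and an edgeR adjusted p of 0.219. In ATEV cells it was 2.63-fold higher than in PBS cells (902 ± 653 against 343 ± 244 CPM, log2 fold change 1.39, interval -0.27 to 3.06, edgeR adjusted p = 0.307). In NTEV cells it was 2.61-fold higher than in PBS cells (895 ± 421 against 343 ± 244 CPM, log2 fold change 1.38, interval -0.28 to 3.05, edgeR adjusted p = 0.319). The intervals reach from slightly below no change to more than 8-fold. Without the filter on low counts the edgeR adjusted p of Cyr61 was 0.0166 for DNase-ATEV, 0.0314 for ATEV and 0.0572 for NTEV over PBS, and DESeq2 gave 0.227, 0.333 and 0.348 in the same order.

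The spread of Cyr61 within groups was the widest of the 10 genes, and it ran the same way in each group. Library 2 over library 1 was 1.91-fold in DNase-ATEV, 3.10-fold in ATEV, 2.0-fold in NTEV and 3.03-fold in PBS. Single libraries therefore set the size of the difference: the log2 fold change of ATEV over PBS was 0.36 without ATEV library 2, 2.04 without ATEV library 1, 0.80 without PBS library 1 and 2.40 without PBS library 2. For DNase-ATEV over PBS it was 1.07 without DNase-ATEV library 2, 2.03 without DNase-ATEV library 1, 0.99 without PBS library 1 and 2.59 without PBS library 2. For NTEV over PBS it was 0.80 without NTEV library 2, 1.84 without NTEV library 1, 0.79 without PBS library 1 and 2.39 without PBS library 2. All of these values are above 0, and what the library number stands for is not given in the labels.

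Between the EV groups the order of the Cyr61 means was DNase-ATEV, ATEV and NTEV, but they differed by far less than their SDs. The log2 fold change was 0.20 for DNase-ATEV over ATEV (interval -1.43 to 1.83), 0.21 for DNase-ATEV over NTEV (interval -1.42 to 1.85) and 0.01 for ATEV over NTEV (interval -1.62 to 1.65). These intervals are wide, and each includes a difference of 2-fold in either direction. They come from a fit that does not use the library numbers.

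Ctgf encodes CCN2, the secreted relative of CCN1 and the other classical YAP target. Its values were 282 and 454 CPM in the DNase-ATEV libraries, 193 and 468 CPM in the ATEV libraries, 350 and 536 CPM in the NTEV libraries, and 318 and 280 CPM in the PBS libraries. The NTEV libraries were above both PBS libraries, the ATEV libraries lay on either side of PBS, and the lower DNase-ATEV library lay between the PBS libraries. The log2 fold change was 0.30 for DNase-ATEV over PBS (interval -0.71 to 1.30), 0.14 for ATEV over PBS (interval -0.86 to 1.15) and 0.57 for NTEV over PBS (interval -0.44 to 1.58, 443 ± 131 against 299 ± 26.6 CPM, edgeR adjusted p = 0.460). As for Cyr61, library 2 was above library 1 in the EV groups, 1.61-fold in DNase-ATEV, 2.43-fold in ATEV and 1.53-fold in NTEV, whereas in PBS the ratio was 0.882. The group means of Ctgf ran from NTEV through DNase-ATEV and ATEV to PBS, and no neighbours in that order differed beyond their spread.

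Ankrd1 encodes an ankyrin-repeat protein that is strongly dependent on YAP in many cell types. Its group means, unlike those of Cyr61 and Ctgf, were lower in each EV group than in PBS. It had 90.1 and 107 CPM in the DNase-ATEV libraries, 70.1 and 82.3 CPM in the ATEV libraries, 83.9 and 65.5 CPM in the NTEV libraries, and 103 and 138 CPM in the PBS libraries. The ATEV and NTEV libraries all lay below both PBS libraries, and DNase-ATEV overlapped PBS. ATEV cells had 76.2 ± 8.68 CPM against 120.5 ± 24.8 CPM in PBS cells, a log2 fold change of -0.66 (SE 0.20, interval -1.14 to -0.19, edgeR adjusted p = 0.117). NTEV cells had 74.7 ± 13.1 CPM against 120.5 ± 24.8 CPM in PBS cells, a log2 fold change of -0.69 (SE 0.20, interval -1.17 to -0.21, edgeR adjusted p = 0.154). The intervals for single genes exclude 0, but with the adjustment over 15197 genes neither passed. For DNase-ATEV over PBS the log2 fold change was -0.29 (interval -0.76 to 0.18). Both DNase-ATEV libraries were above both ATEV libraries and both NTEV libraries for this gene, with log2 fold changes of 0.37 over ATEV (interval -0.10 to 0.84, edgeR adjusted p = 0.569) and 0.40 over NTEV (interval -0.08 to 0.87, edgeR adjusted p = 0.567).

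Amotl2, Ajuba and Lats2 encode proteins that act on YAP in turn. AMOTL2 is a motin that holds YAP at junctions and actin, AJUBA is a LIM protein that restrains LATS kinases, and LATS2 is the kinase itself. Amotl2 had 195 and 189 CPM in the DNase-ATEV libraries, 181 and 255 CPM in the ATEV libraries, 217 and 224 CPM in the NTEV libraries, and 124 and 134 CPM in the PBS libraries. All 6 EV libraries were above both PBS libraries, the lowest of them at 181 CPM and the higher PBS library at 134 CPM. ATEV cells had 218 ± 52.2 CPM against 129 ± 7.05 CPM in PBS cells (1.68-fold, interval 1.27 to 2.23, log2 fold change 0.75, SE 0.17, edgeR adjusted p = 0.0551). NTEV cells had 221 ± 5.05 CPM against 129 ± 7.05 CPM in PBS cells (1.71-fold, interval 1.29 to 2.26, log2 fold change 0.77, SE 0.17, edgeR adjusted p = 0.0976). DNase-ATEV cells had 192 ± 4.0 CPM against 129 ± 7.05 CPM in PBS cells (1.48-fold, interval 1.12 to 1.97, log2 fold change 0.57, SE 0.17, edgeR adjusted p = 0.112).

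For Amotl2 the call depended on the method. DESeq2 gave an adjusted p of 0.00780 for ATEV over PBS and of 0.0150 for NTEV over PBS, and of 0.0795 for DNase-ATEV over PBS. In edgeR without the filter on low counts the adjusted p for the same gene was 0.0103 for ATEV over PBS and 0.0206 for NTEV over PBS. Without ATEV library 1 the edgeR adjusted p for ATEV over PBS was 0.0190, and without 1 of the other 7 libraries it did not pass. Between EV groups the intervals of Amotl2 included 0: the log2 fold change was -0.18 for DNase-ATEV over ATEV (interval -0.58 to 0.22), -0.20 for DNase-ATEV over NTEV (interval -0.60 to 0.20) and -0.02 for ATEV over NTEV (interval -0.42 to 0.38).

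Ajuba was the most even of the 10 genes, with 133 and 121 CPM in the DNase-ATEV libraries, 126 and 124 CPM in the ATEV libraries, 142 and 118 CPM in the NTEV libraries, and 119 and 140 CPM in the PBS libraries. Groups overlapped in every comparison, the highest library was 1.20-fold above the lowest, and the intervals of its log2 fold changes against PBS lay within -0.39 to 0.35. Lats2 had 46.6 and 43.8 CPM in the DNase-ATEV libraries, 48.9 and 49.2 CPM in the ATEV libraries, 54.7 and 53.5 CPM in the NTEV libraries, and 41.4 and 49.7 CPM in the PBS libraries. Its highest values were those of NTEV, above all other libraries, with a log2 fold change of 0.25 over PBS (interval -0.07 to 0.57, edgeR adjusted p = 0.341). Against PBS, Lats2 had log2 fold changes of -0.01 in DNase-ATEV cells (interval -0.33 to 0.31) and 0.11 in ATEV cells (interval -0.21 to 0.43). In the annotation a same-strand gene model, Gm49361, overlaps exons of Lats2, and opposite-strand models overlap Ctgf (Gm15270) and Yap1 (Gm20416). The strand setting of the counting is not given in the sources used here, so reads of these genes and of their overlapping models cannot be told apart.

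Axl encodes a receptor tyrosine kinase that binds GAS6 and that YAP can induce. It had 708 and 582 CPM in the DNase-ATEV libraries, 754 and 830 CPM in the ATEV libraries, 785 and 750 CPM in the NTEV libraries, and 779 and 659 CPM in the PBS libraries. Both DNase-ATEV libraries lay below all ATEV and NTEV libraries, and each EV group overlapped PBS. The log2 fold change was -0.30 for DNase-ATEV over ATEV (interval -0.66 to 0.06, 645 ± 89.1 against 792 ± 53.9 CPM, edgeR adjusted p = 0.550) and -0.25 for DNase-ATEV over NTEV (interval -0.61 to 0.11, edgeR adjusted p = 0.646). Against PBS the log2 fold change was -0.16 in DNase-ATEV cells (interval -0.52 to 0.20), 0.14 in ATEV cells (interval -0.22 to 0.50) and 0.09 in NTEV cells (interval -0.27 to 0.45). Of the genes around this receptor, the ligand Gas6 was near absence, with at most 14 counts in a library, and Pros1, which encodes protein S, a ligand of the related receptors TYRO3 and MERTK, was well expressed. Pros1 had 28.1 and 32.6 CPM in the DNase-ATEV libraries, 65.0 and 69.1 CPM in the ATEV libraries, 32.8 and 39.3 CPM in the NTEV libraries, and 36.6 and 25.7 CPM in the PBS libraries. Pros1 rose in ATEV cells against PBS (log2 fold change 1.11, SE 0.20, edgeR adjusted p = 0.0278), a call lost without either ATEV or either PBS library and in a fit of the 2 groups alone (edgeR adjusted p 0.0582 to 0.164). The other comparisons of Pros1 did not pass: in ATEV over NTEV its log2 fold change was 0.90 (edgeR adjusted p = 0.127) and in DNase-ATEV over ATEV -1.14 (edgeR adjusted p = 0.0821). Both passed for Pros1 by DESeq2 (adjusted p 0.00932 and 0.000184) and in edgeR without the low-count filter (adjusted p 0.0161 and 0.00176). Tyro3 and Mertk, the other tested genes of that list, did not pass in edgeR in any comparison. DESeq2 called Mertk in ATEV over NTEV (log2 fold change -1.93, adjusted p = 0.0494). Mertk was low, with 22 and 36 counts in the ATEV libraries and 78 and 144 in the NTEV libraries. Of the 3 tested genes edgeR called 1 in ATEV against PBS (5.19% of all genes). DESeq2 called 1 in ATEV against PBS (9.69%), 2 in ATEV against NTEV (3.04%) and 1 in DNase-ATEV against ATEV (2.3%).

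Yap1, Wwtr1 and Tead1 are the factors rather than the readouts. Yap1 had 185 and 165 CPM in the DNase-ATEV libraries, 233 and 219 CPM in the ATEV libraries, 223 and 208 CPM in the NTEV libraries, and 209 and 196 CPM in the PBS libraries. The DNase-ATEV libraries were the lowest of all 8, and the ATEV libraries were both above PBS. Against ATEV, Yap1 in DNase-ATEV cells had a log2 fold change of -0.37 (interval -0.66 to -0.08, 175 ± 14.5 against 226 ± 9.47 CPM), with an unadjusted p of 0.0194 and an adjusted p of 0.316 in edgeR. Against NTEV it was -0.30 (interval -0.59 to -0.01, 175 ± 14.5 against 216 ± 10.97 CPM, edgeR adjusted p = 0.486), and against PBS -0.21 (interval -0.50 to 0.08, 175 ± 14.5 against 203 ± 8.74 CPM, edgeR adjusted p = 0.320). For ATEV over PBS the log2 fold change of Yap1 was 0.16 (interval -0.13 to 0.45) and for NTEV over PBS 0.09 (interval -0.20 to 0.38), so a change of Yap1 mRNA by more than 1.37-fold upwards in ATEV cells lies outside the interval.

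Tead1, the most abundant of the TEAD factors here per kilobase of exon, had 159 and 147 CPM in the DNase-ATEV libraries, 171 and 162 CPM in the ATEV libraries, 210 and 185 CPM in the NTEV libraries, and 169 and 144 CPM in the PBS libraries. Both NTEV libraries were above all other libraries. The log2 fold change was 0.33 for NTEV over PBS (interval 0.01 to 0.66, edgeR adjusted p = 0.252), -0.24 for ATEV over NTEV (interval -0.57 to 0.08, edgeR adjusted p = 0.847) and -0.37 for DNase-ATEV over NTEV (interval -0.69 to -0.04, edgeR adjusted p = 0.464). Wwtr1 had 190 and 222 CPM in the DNase-ATEV libraries, 189 and 249 CPM in the ATEV libraries, 224 and 290 CPM in the NTEV libraries, and 235 and 169 CPM in the PBS libraries. The groups overlapped for Wwtr1 except that both NTEV libraries were above both DNase-ATEV libraries, with a log2 fold change of -0.32 for DNase-ATEV over NTEV (interval -0.85 to 0.22, edgeR adjusted p = 0.702). Against PBS, Wwtr1 had log2 fold changes of 0.03 in DNase-ATEV cells (interval -0.50 to 0.56), 0.12 in ATEV cells (interval -0.41 to 0.65) and 0.34 in NTEV cells (interval -0.19 to 0.88).

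**Figure D2:**
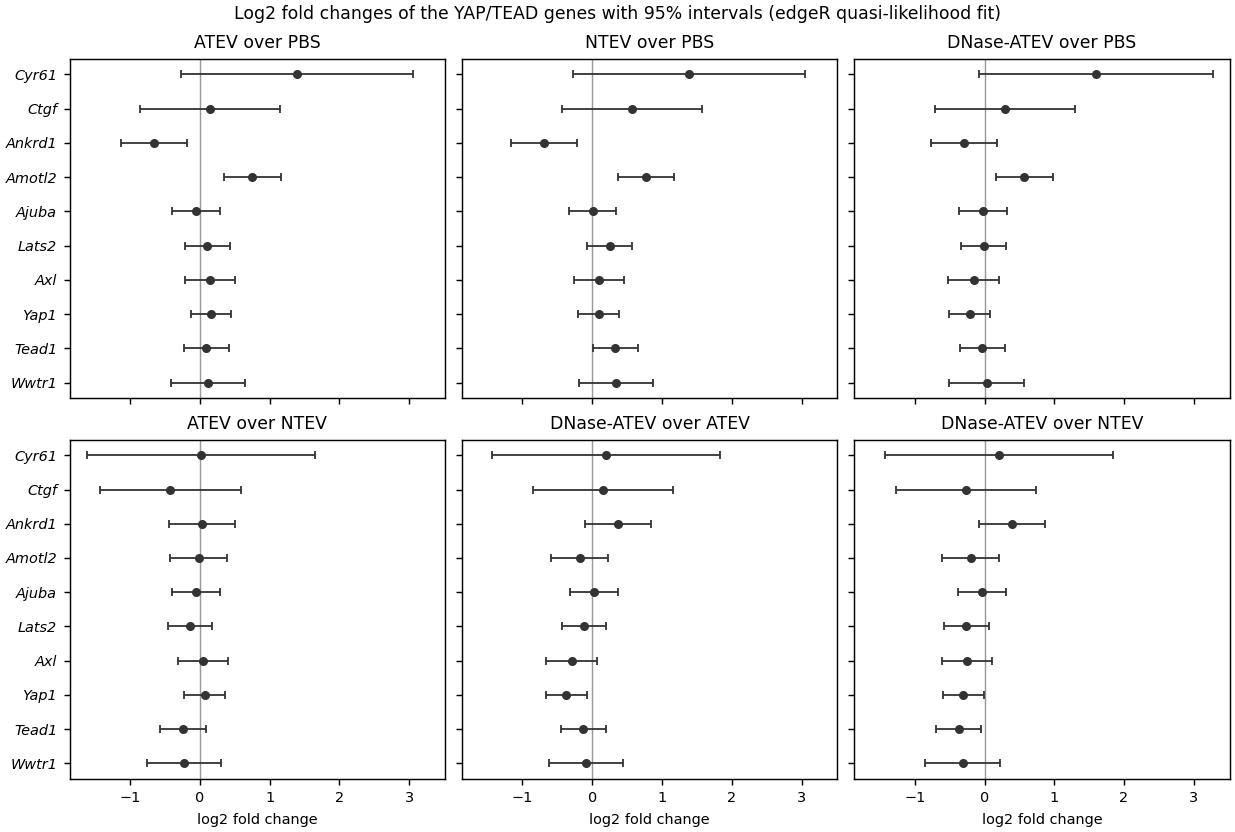
Log2 fold changes (x axis, edgeR) of the 10 genes (rows) in each of the 6 comparisons, with points for the estimate and bars for the 95% interval. Cyr61 and Ctgf had the widest intervals in each panel, Amotl2 lay above 0 with its interval in the 3 comparisons with PBS, and Ankrd1 lay below 0 with its interval for ATEV and NTEV over PBS.

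Taken as a list, 4 of the 10 genes had a log2 fold change above 0 in DNase-ATEV over PBS (49.9% of all genes), 8 in ATEV over PBS (48.3%) and 9 in NTEV over PBS (49.8%). Below 0 were 6 of 10 in ATEV over NTEV (48.4% of all genes), 6 in DNase-ATEV over ATEV (48.3%) and 8 in DNase-ATEV over NTEV (48.3%). The median log2 fold change of the 10 genes was -0.02 for DNase-ATEV over PBS, 0.13 for ATEV over PBS and 0.29 for NTEV over PBS, beside medians of 0.00, -0.02 and 0.00 over all 15197 genes. It was -0.04 for ATEV over NTEV, -0.10 for DNase-ATEV over ATEV and -0.25 for DNase-ATEV over NTEV, beside 0.01 over all genes in each of them. Libraries of the 2 groups did not overlap for 2 genes higher and 1 lower in DNase-ATEV against PBS, where 60.6% of all genes did not overlap in one direction or the other. The count was 2 higher and 1 lower in ATEV against PBS (52.5% of all genes) and 5 higher and 1 lower in NTEV against PBS (59.5% of all genes). Between EV groups it was 0 higher and 2 lower in ATEV against NTEV (30% of all genes), 1 higher and 4 lower in DNase-ATEV against ATEV (36.2% of all genes) and 1 higher and 6 lower in DNase-ATEV against NTEV (38.6% of all genes). The 6 lower in DNase-ATEV than in NTEV were Amotl2, Lats2, Axl, Yap1, Tead1 and Wwtr1, with log2 fold changes of -0.37 to -0.20, none past the threshold.

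**Figure D3:**
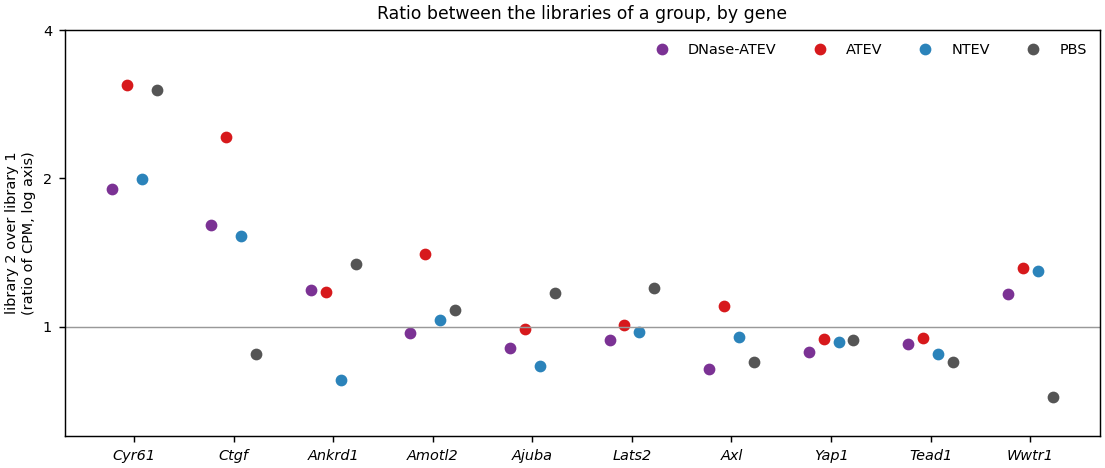
CPM of library 2 over CPM of library 1 (y axis, log scale with base 2) for each of the 10 genes (x axis), with 1 point per group. Cyr61 was at 1.91 to 3.10 in all 4 groups, Ctgf was above 1 in the EV groups and at 0.882 in PBS, and the other 8 genes lay between 0.719 and 1.41.

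Genes whose log2 CPM followed Cyr61 most closely over the 8 libraries, among 10546 named protein-coding genes, were Adamts15 (Pearson r = 0.988, Spearman rho = 0.952), Baiap2 (0.976 and 0.905), Ier3 (0.975 and 0.905), Ppp1r15a (0.975 and 0.952) and Muc4 (0.973 and 0.857). For Ctgf they were Dlgap4 (Pearson r = 0.985, Spearman rho = 0.976), Trp53inp2 (0.985 and 0.976), Cdhr2 (0.984 and 0.905), Hdac9 (0.977 and 0.929) and Slc35f5 (0.975 and 0.952). These are descriptions of 8 libraries that share groups and library numbers. Adamts15, an extracellular protease gene, had 10.4 and 15.9 CPM in DNase-ATEV, 7.38 and 14.0 CPM in ATEV, 7.53 and 12.7 CPM in NTEV, and 3.22 and 7.57 CPM in PBS, the same order of libraries 1 and 2 within each group as Cyr61.

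Upstream of YAP, 20 of 21 genes of the Hippo kinases and their regulators were tested, and 1 passed, in 1 comparison. That was ATEV against PBS, where edgeR called 5.19% of all genes, so 1 of 20 lies near this share. Mob1b, which encodes an activating subunit of the LATS kinases, had 54.3 and 56.8 CPM in DNase-ATEV, 52.5 and 47.2 CPM in ATEV, 64.7 and 52.8 CPM in NTEV, and 82.6 and 82.97 CPM in PBS. All EV libraries were below both PBS libraries. Mob1b fell in ATEV cells against PBS (log2 fold change -0.73, SE 0.14, edgeR adjusted p = 0.0347). The call was lost in a fit of the 2 groups alone and without either ATEV, PBS or DNase-ATEV library (edgeR adjusted p 0.0634 to 0.195). In DNase-ATEV over PBS the log2 fold change of Mob1b was -0.58 (edgeR adjusted p = 0.0761) and in NTEV over PBS -0.50 (edgeR adjusted p = 0.149). Of the 14 alternative settings, Mob1b passed in 1 for DNase-ATEV over PBS and in 0 for NTEV over PBS. In the reported edgeR fit no other gene of this list passed in ATEV against PBS, and 0 passed in the other 5 comparisons. Of the 20 genes, those with an unadjusted p under 0.05 numbered 5 in DNase-ATEV against PBS (24.7% of all genes), 6 in ATEV against PBS (21.9%), 6 in NTEV against PBS (19.1%), 3 in ATEV against NTEV (8.23%), 0 in DNase-ATEV against ATEV (11.3%) and 2 in DNase-ATEV against NTEV (10%). DESeq2 called 5 of them in DNase-ATEV against PBS (9.69% of all genes), 1 in ATEV against PBS (9.69%), 2 in NTEV against PBS (5.06%) and 0 between EV groups. Fat1, a giant cadherin upstream of the Hippo kinases, came closest in NTEV over PBS (log2 fold change 1.08, SE 0.19, edgeR adjusted p = 0.0527). It had 939 and 639 CPM in DNase-ATEV, 642 and 644 CPM in ATEV, 1012 and 1060 CPM in NTEV, and 478 and 504 CPM in PBS. Ptpn14, a phosphatase that binds YAP, had a log2 fold change of 0.72 in NTEV over PBS (edgeR adjusted p = 0.0720). Its values were 154 and 177 CPM in DNase-ATEV, 153 and 164 CPM in ATEV, 189 and 193 CPM in NTEV, and 126 and 106 CPM in PBS. For both genes all EV libraries were above both PBS libraries. The median log2 fold change of the 20 genes was -0.08 in DNase-ATEV over PBS, -0.09 in ATEV over PBS and 0.09 in NTEV over PBS.

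Of the other TEAD factors and the VGLL proteins, which bind TEAD in place of YAP, 4 of 7 genes were tested and none passed in edgeR in any comparison. At an unadjusted p under 0.05 there were 2 of 4 in DNase-ATEV against PBS (24.7% of all genes), 1 in ATEV against PBS (21.9%) and 0 in the rest, and DESeq2 called 1 in DNase-ATEV against PBS (9.69%) and 0 in the rest. Tead3 had the smallest p in DNase-ATEV over PBS (log2 fold change 0.51, edgeR adjusted p = 0.0915). It had 27.0 and 29.5 CPM in DNase-ATEV, 25.8 and 25.1 CPM in ATEV, 25.3 and 24.2 CPM in NTEV, and 20.5 and 19.2 CPM in PBS. All EV libraries were above both PBS libraries. Vgll1 was at 0 counts in every library and Vgll3 had at most 3, while Vgll4, an inhibitor of TEAD, had 49.0 to 71.0 CPM over the 8 libraries.

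A set of 22 YAP and TAZ target genes described in human tumours holds 16 genes beyond the members of that set among the 10, of which 15 were tested. Ptpn14, described above, is one of them and counts in both lists. Nuak2, a kinase gene of that set, had 34.8 and 33.5 CPM in DNase-ATEV, 35.3 and 36.1 CPM in ATEV, 21.7 and 21.7 CPM in NTEV, and 20.2 and 14.8 CPM in PBS. The 4 libraries of the DNase-ATEV and ATEV groups lay above all others. Nuak2 rose in DNase-ATEV against PBS (log2 fold change 0.96, SE 0.17, edgeR adjusted p = 0.0381). It rose as well in ATEV against PBS (log2 fold change 1.03 with SE 0.17, edgeR adjusted p = 0.0220). It did not pass in ATEV over NTEV (log2 fold change 0.72, edgeR adjusted p = 0.161) or in DNase-ATEV over NTEV (log2 fold change 0.65, edgeR adjusted p = 0.384). Of the 14 alternative settings, Nuak2 passed in 1 for ATEV over NTEV and in 0 for DNase-ATEV over NTEV. In ATEV against PBS the Nuak2 call was lost without either ATEV library or PBS library 2 and in a fit of the 2 groups alone (edgeR adjusted p 0.0616 to 0.132). In DNase-ATEV against PBS it was lost when any 1 of the 8 libraries was left out and in a fit of protein-coding genes alone (edgeR adjusted p 0.0514 to 0.229). Nuak2 was the 1 edgeR call among the 15 in DNase-ATEV against PBS (3.01% of all genes) and in ATEV against PBS (5.19%). In NTEV against PBS 0 of the 15 passed (1.11% of all genes), with a smallest edgeR adjusted p of 0.0599. At an unadjusted p under 0.05 edgeR had 4 of the 15 in DNase-ATEV against PBS (24.7% of all genes), 5 in ATEV against PBS (21.9%) and 5 in NTEV against PBS (19.1%), and DESeq2 called 2 (9.69%), 4 (9.69%) and 2 (5.06%) in the same comparisons. Between EV groups edgeR called 0 of the 15, with 4 at an unadjusted p under 0.05 in ATEV against NTEV (8.23% of all genes), 3 in DNase-ATEV against ATEV (11.3%) and 3 in DNase-ATEV against NTEV (10%). DESeq2 called 2 (3.04%), 1 (2.3%) and 0 (1.1%) there. Tgfb2, which encodes a ligand of the TGF-beta family, had 2.42 and 2.09 CPM in DNase-ATEV, 6.28 and 7.60 CPM in ATEV, 2.11 and 2.24 CPM in NTEV, and 1.73 and 3.22 CPM in PBS, so that both ATEV libraries stood above the other 6, and its edgeR adjusted p for ATEV over PBS was 0.05003, just outside the threshold (log2 fold change 1.496, SE 0.33). It passed there in 4 of the 14 alternatives, among them DESeq2 (adjusted p = 0.000804) and edgeR without the low-count filter (adjusted p = 0.00562). Under these 2 alternatives Tgfb2 also passed in ATEV over NTEV and in DNase-ATEV over ATEV, where the reported fit gave log2 fold changes of 1.67 (edgeR adjusted p = 0.0833) and -1.62 (edgeR adjusted p = 0.131). The median log2 fold change of the 15 genes was 0.15 in DNase-ATEV over PBS, 0.13 in ATEV over PBS and 0.36 in NTEV over PBS.

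SRF and its MRTF co-activators respond to actin and share some targets with YAP, and 12 of 15 genes of this group were tested. Tagln, Myl9 and Cnn1, which were not tested, had at most 5, 4 and 3 counts in a library. Tagln had 0 counts in both ATEV libraries. Acta2, smooth muscle actin, was the called gene. It was 1 of 12 in ATEV against PBS (5.19% of all genes), ATEV against NTEV (1.19%) and DNase-ATEV against ATEV (0.665%). It had 4.07 and 4.36 CPM in DNase-ATEV, 38.5 and 39.8 CPM in ATEV, 4.30 and 1.79 CPM in NTEV, and 5.17 and 5.99 CPM in PBS. Both ATEV libraries stood apart from the other 6. Acta2 rose in ATEV against PBS (log2 fold change 2.81, SE of 0.37 and edgeR adjusted p = 0.00833). It also rose in ATEV against NTEV (log2 fold change 3.67, SE 0.39, edgeR adjusted p = 0.00641), groups with different vesicle doses, and it fell in DNase-ATEV against ATEV (log2 fold change -3.22, SE 0.38, edgeR adjusted p = 0.0154). The call in ATEV against PBS was lost without either PBS library (edgeR adjusted p 0.0950 and 0.105), that in ATEV against NTEV in a fit of the 2 groups alone (edgeR adjusted p = 0.0851), and that in DNase-ATEV against ATEV without either DNase-ATEV or PBS library (edgeR adjusted p 0.0539 to 0.164). Srf itself, Vcl, Flna, Zyx, Tpm1, Tpm2, Cnn2, Actb, Actg1, Mrtfa and Mrtfb did not pass in edgeR in any comparison. The 0 calls in 3 comparisons stand beside 1 of 12 genes at an unadjusted p under 0.05 in DNase-ATEV against PBS (24.7% of all genes), 3 in NTEV against PBS (19.1%) and 3 in DNase-ATEV against NTEV (10%). DESeq2 called 1 (9.69%), 0 (5.06%) and 0 (1.1%) there. The median log2 fold change of the 12 genes was -0.04 in DNase-ATEV over PBS, 0.18 in ATEV over PBS and 0.22 in NTEV over PBS. Fibroblasts also express Acta2, and the 8 fibroblast markers summed to 6.22 and 10.6 CPM in the DNase-ATEV libraries, 2.97 and 7.28 CPM in the ATEV libraries, 5.36 and 9.48 CPM in the NTEV libraries, and 5.11 and 3.46 CPM in the PBS libraries, with Dcn and Lum at 0 in all of them. Most of each sum was Col1a1. Col3a1 had 3 and 78 counts in the ATEV libraries and 3 to 13 in the other 6, and Pdgfrb had 1 and 12 counts in the ATEV libraries and 0 to 4 in the other 6, while both ATEV libraries were alike for Acta2. The part of these markers in the Acta2 values was not tested. Of the remaining CCN family, Nov and Wisp1 were tested, and edgeR and DESeq2 called 0 of them in every comparison. Over all genes edgeR called 0.0526% to 5.19% in the 6 comparisons and DESeq2 1.1% to 9.69%, so 0 of 2 lies near these shares. Only Nov in ATEV against PBS had an unadjusted edgeR p under 0.05, a level that held 21.9% of all genes there. Nov was low, with 65 to 119 counts in a library.

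**Figure D4:**
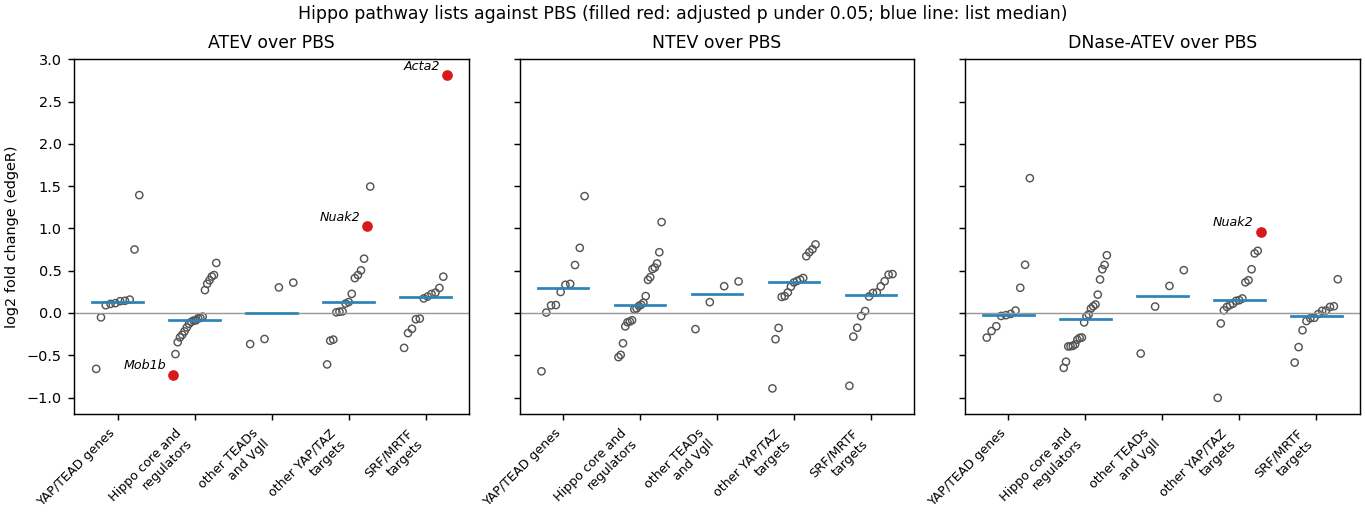
Log2 fold changes (y axis, edgeR) against PBS of the 10 genes, the Hippo kinases and regulators, the other TEAD and VGLL genes, the other YAP and TAZ targets and the SRF and MRTF targets (x axis), with 1 point per gene, red where the adjusted p was under 0.05, and a blue line for the list median. Mob1b, Nuak2 and Acta2 passed in ATEV over PBS and Nuak2 in DNase-ATEV over PBS, none passed in NTEV over PBS, and list medians lay between -0.09 and 0.36.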

How the data were processed

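The deposited values are whole-number gene counts (unit: counts), 1 column per library. Per the labels' protocols, column-purified RNA was made into TruSeq stranded mRNA libraries. Bcl2fastq 2.19, TopHat2 2.0.11, Cufflinks 2.1.1 and mm9 are named by the submitters' processing notes. Which program counted reads, with what strand setting and annotation, is not given in the sources used here. Symbols, matched for 42329 of 42687 identifiers, gene classes and exon lengths came from GENCODE M21, and no coordinates of the files were used. The analysis used edgeR 4.0.16 in R 4.3.3: expression filter by group, TMM scaling, a quasi-likelihood fit of 4 group means to all 8 libraries (4 residual degrees of freedom), two-sided p-values with Benjamini-Hochberg adjustment over 15197 genes per comparison, and a threshold of 0.05. The steps were tested on simulated data. With 2 libraries against 2, an exact permutation test of 1 gene cannot go below p = 0.333. Between the libraries of a group the chi-square per gene was 39.0 to 145, so none was counted as a repeat of another. The replicate numbers were not used to pair libraries. Alternatives were DESeq2 1.42.0, its size factors in edgeR, no low-count filter, protein-coding genes only, a fit of the compared groups alone, a replicate block and leaving out each library. All 10 genes were named in every comparison. Of each pathway list up to 5 called genes with the smallest p were named. Where none was called, up to 2 with the smallest p were named, though not in every comparison. The genes and lists were chosen with earlier results of these data known. Tyro3, Mertk, Gas6, fibroblast markers, Vgll1, Vgll3, Vgll4 and Tgfb2 are named outside that rule, after their values were seen. So are the uncalled SRF, MRTF and CCN genes and the untested Tagln, Myl9 and Cnn1.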

Additional observations from a re-analysis of the deposited data

How the results depend on the processing

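None of the 10 genes was called in the comparisons between EV groups under any of the 14 alternatives, and against PBS the calls depended on the setting. In DNase-ATEV against PBS the count was 1 (Cyr61) without the low-count filter and 1 (Cyr61) with a replicate block. In ATEV against PBS it was 1 (Amotl2) by DESeq2, 2 (Cyr61 and Amotl2) without the low-count filter, 2 (the same) with the block, and 0 to 1 without 1 library. In NTEV against PBS it was 1 (Amotl2) by DESeq2, 1 (Amotl2) without the filter and 1 (Cyr61) with the block. With the replicate block, Cyr61 had log2 fold changes of 1.73 (edgeR adjusted p = 0.0127) in DNase-ATEV, 1.39 (0.0144) in ATEV and 1.51 (0.0274) in NTEV over PBS. Same-numbered libraries deviated together among the EV groups (correlations 0.485 to 0.552) but not with PBS (-0.236 to -0.141), and the labels give no shared origin, so the numbers are not taken as pairs.

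Over all genes, DNase-ATEV against PBS called 458 genes in the reported fit, 1485 by DESeq2, 1520 without the filter, 35 among protein-coding genes only, 1052 with the block and 11 to 382 without 1 library. ATEV against PBS called 788, and 1476, 1454 and 371 under the first 3 of these, 454 with the compared groups alone and 131 to 562 without 1 library. NTEV against PBS called 169, and 770, 773 and 1, with 330 under the block and 5 to 125 without 1 library. ATEV against NTEV called 181, and 462 by DESeq2, 459 without the filter, 51 with the compared groups alone and 71 to 166 without 1 library. DNase-ATEV against ATEV called 101, and 350, 343, 47 and 27 to 99 in the same order. DNase-ATEV against NTEV called 8, and 167, 180, 2, 24 with the block and 1 to 10 without 1 library. The cause was not tested.

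Uncalled log2 fold changes changed sign under some settings, and not all of them were near 0 in the reported fit. Among them were Acta2 in DNase-ATEV over NTEV (0.46), Ctgf in ATEV over NTEV (-0.42) and Ctgf in DNase-ATEV over PBS (0.30). Ctgf in ATEV over PBS was -0.0031 and Cyr61 in ATEV over NTEV -0.12 with the block, and Lats2 in DNase-ATEV over PBS was 0.0017 with the compared groups alone, 0.014 among protein-coding genes and 0.0018 with the other size factors. Without 1 library, the following ranged across 0. In ATEV over NTEV they were -0.18 to 0.070 for Ajuba, -0.28 to 0.23 for Amotl2, -0.14 to 0.21 for Ankrd1, -0.021 to 0.13 for Axl, -1.20 to 0.10 for Ctgf and -1.02 to 0.62 for Cyr61. In ATEV over PBS they were -0.17 to 0.065 for Ajuba, -0.63 to 0.69 for Ctgf, -0.025 to 0.24 for Lats2, -0.023 to 0.21 for Tead1 and -0.10 to 0.37 for Wwtr1. In DNase-ATEV over ATEV they were -0.046 to 0.074 for Ajuba, -0.43 to 0.079 for Amotl2, -0.37 to 0.92 for Ctgf, -0.41 to 1.23 for Cyr61 and -0.29 to 0.11 for Wwtr1. In DNase-ATEV over NTEV they were -0.037 to 1.21 for Acta2, -0.16 to 0.086 for Ajuba, -0.67 to 0.062 for Ctgf, -0.35 to 0.79 for Cyr61, -0.23 to 0.055 for Mob1b and -0.044 to 0.14 for Tgfb2. In DNase-ATEV over PBS they were -0.15 to 0.083 for Ajuba, -0.076 to 0.64 for Ctgf, -0.15 to 0.12 for Lats2, -0.28 to 0.23 for Pros1, -0.16 to 0.076 for Tead1, -0.53 to 0.37 for Tgfb2 and -0.20 to 0.27 for Wwtr1. In NTEV over PBS they were -0.11 to 0.13 for Ajuba, -0.024 to 0.21 for Axl, -0.027 to 0.48 for Pros1 and -0.57 to 0.33 for Tgfb2.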

Other observations

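A count of genes with the same library order as Cyr61 was added after the data had been seen. Of 11183 genes with a mean log2 CPM of at least 1, 35 (0.313%) had library 2 at least 1.5-fold above library 1 in all 4 groups, and 1 gene had the opposite order. Cyr61 was among the 35. The others, which were not tested for any shared function, included Egr1, Fos, Jun, Junb, Atf3, Ier2, Dusp1, Nr4a1 and Zfp36, known as rapidly induced genes, as well as Adamts15, Muc4, Muc5ac, Gpa33, Fmo2, Cyp4f14, Ces2c, Plin4, Slc22a4 and Oas2, which are not known as such. Library 2 over library 1 was for Egr1 3.57 in DNase-ATEV, 3.55 in ATEV, 2.99 in NTEV and 4.82 in PBS. For Fos the ratio was 2.64 in DNase-ATEV, 2.83 in ATEV, 2.15 in NTEV and 13.7 in PBS. For Jun it was 2.20 in DNase-ATEV, 2.16 in ATEV, 1.68 in NTEV and 3.51 in PBS. None of the other 9 YAP and TEAD genes was among the 35. The labels do not say how library 1 and library 2 differ, and its part in the Cyr61 values was not tested.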
